A study of Felis catus with 23 samples.

Results

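The chromosome 19 miRNA cluster is a dense run of miRNA genes that is known only from primates, where it is expressed mainly in the placenta and lies next to the smaller miR-371 to miR-373 cluster, which is shared more widely among mammals. Its members were measured here in the serum of cats, which are not known to carry the cluster, so that probes for its human miRNAs give a view of the signal an array reports where the named target is not expected. The members were all human names on the array with the numbers miR-498, miR-512, miR-515 to miR-527, miR-1283 or miR-1323, with any letter or arm suffix and with control spots left out. This gave 45 of the 2026 miRNA names on the array, measured by 99 of its 4944 probes. The other names were 1842 human names and 139 names of miRNAs of human viruses. No cat genome and no miRNA sequence were used here, so the absence of the cluster from cats is background and was not checked, and no sequence is printed.

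The study set 11 cats with hypertrophic cardiomyopathy (HCM), in which the walls of the left ventricle thicken, against 12 healthy cats, with 1 Agilent 1-colour array of serum RNA for each animal. The labels used here give the disease status and the tissue of each sample, and no age, breed, sex or drug treatment of the cats. The arrays lay on 3 slides that each held both groups, with 3 HCM and 4 healthy arrays on slide 1 and 4 of each group on slides 2 and 3. Every slide had its HCM arrays in row 1 and its healthy arrays in row 2, and row and group therefore cannot be told apart. Brightness of an array, taken as the 75th percentile intensity over the 508 probes detected on all arrays, ran from 90.5 to 699. Its log2 value was 8.22 ± 0.49 (SD, n = 11) in HCM and 7.80 ± 0.91 (SD, n = 12) in healthy arrays. The red cell miRNAs miR-451a and miR-486-5p were detected on 23 arrays each, with a median unscaled intensity of 49.1 and 3224. miR-451a ran from 7.19 to 3370. The myeloid miR-223-3p was detected on 21 arrays, with a median of 10.3. Members of the cluster were detected as widely, miR-498 on 23 arrays (median 92.6) and miR-516a-5p on 21 (median 34.6). Detection of these blood miRNAs therefore cannot by itself check the labelled serum.

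miRNAs are short RNAs that are cut from a hairpin, whose arms give a 5p and a 3p product. They bind mRNAs mainly through a short seed near their 5′ end. Many 3p products of the cluster, among them miR-520b, miR-520e, miR-520a-3p, miR-520c-3p and miR-520d-3p, share their seed with the stem cell miRNAs miR-302, miR-372 and miR-373-3p, and miR-519d shares its seed with miR-17. In human pregnancy, products of the cluster are released by trophoblast cells, the outer cells of the placenta, in small vesicles and circulate in the mother's blood. For miR-517a-3p, miR-516b-5p and miR-512-3p, such vesicles have been linked to resistance of other cells to viruses.

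Most members gave no signal that the scanner software called. Detection on an array required that at least 50% of a probe's spots, without those marked as outliers, carried the scanner software's flag for a signal well above background, and each name was read from its probe with the highest mean intensity. By this call 31 of the 45 members (68.9%) were detected on 0 of 23 arrays, 7 were detected on 1 to 5 arrays and 7 on at least 6. Of the other human names 64.3% were detected on 0 arrays, and of the viral names 62.6%. Detection on at least 6 arrays was reached by 15.6% of the members, 27.0% of the other human names and 28.1% of the viral names. Over all pairs of a name and an array, 13.2% were detected for the members, 23.4% for the other human names and 25.5% for the viral names. These shares describe lists of unequal size and were not tested against each other. The scanner's own call per name, which pools all probes of a name, left 29 members without detection and put 10 on at least 6 arrays. Shares of the other names under that call are not given, so it does not show whether the members differ from them.

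**Figure D1:**
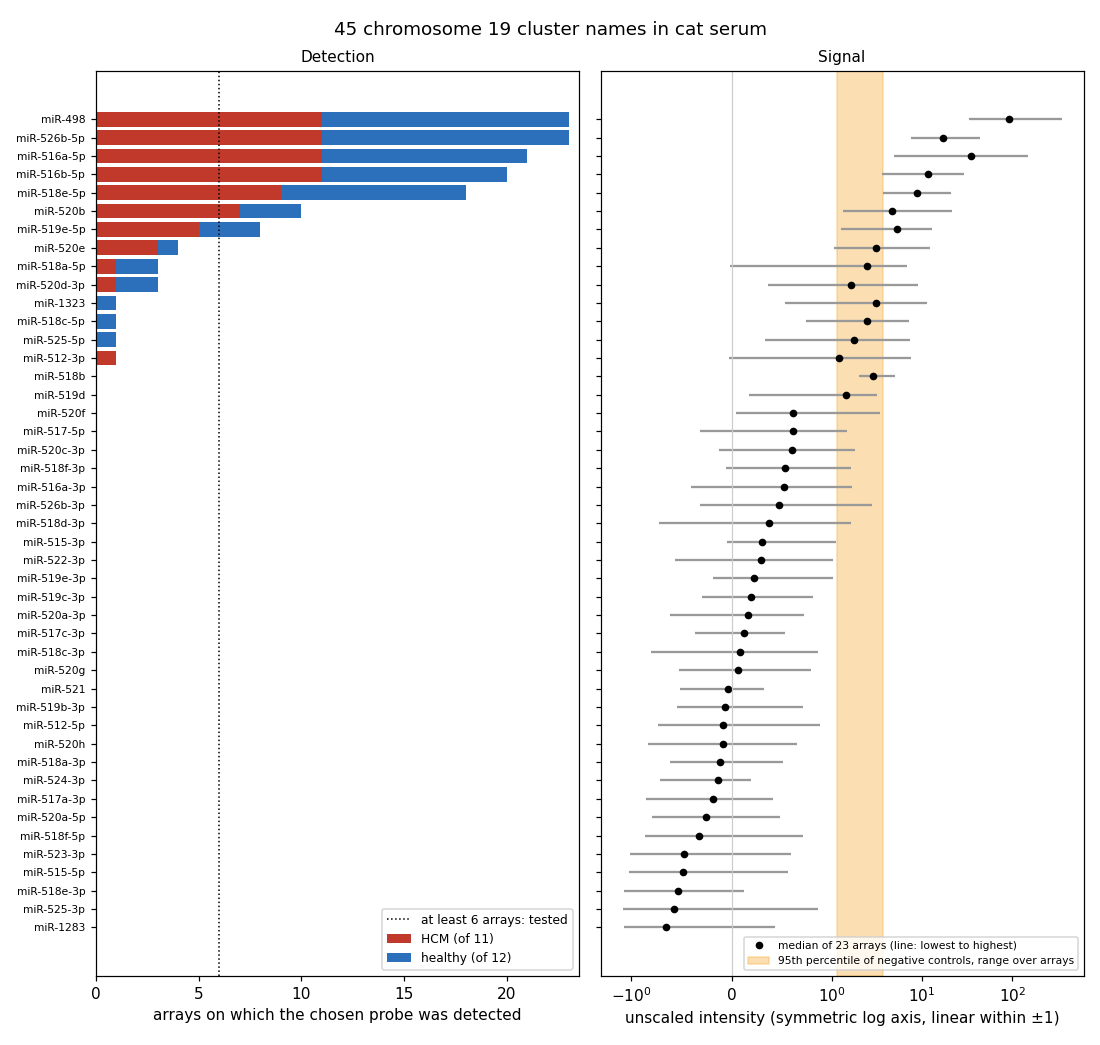
The 45 members, ordered by the number of arrays on which the chosen probe was detected. Left, stacked bars count HCM (of 11) and healthy (of 12) arrays, and the dotted line marks the minimum of 6 arrays for testing. Right, points give the median and lines the lowest and highest unscaled intensity over 23 arrays on a symmetric log axis, and the band spans the 95th percentile of the negative control spots over arrays (1.15 to 3.69). The 7 members at the top passed the minimum, and 31 have no bar.

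Of the 7 members detected on at least 6 arrays, 5 carry 5p in their name. Of 13 members named as 5p, 5 were detected on at least 6 arrays, 3 on 1 to 5 arrays and 5 on 0. Of 21 members named as 3p, 0 reached 6 arrays, 2 were detected on 1 to 5 arrays and 19 on 0. The remaining 11 names carry no arm, and of these 2 reached 6 arrays, namely miR-498 and miR-520b. miR-520b is a 3p product, and the arm of miR-498 was not examined. The counts follow the array names only, so neither is counted under an arm. Among the other human names, detection on at least 6 arrays was reached by 23.0% of 513 5p names, 27.3% of 528 3p names and 29.3% of 801 without an arm. These counts were not tested against each other. Sequences that the 5p products may share were not examined.

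miR-498 was detected on all 23 arrays. Its unscaled intensity ran from 62.3 through a median of 104 to 201 in the 11 HCM arrays and from 32.8 through 80.6 to 352 in the 12 healthy arrays. All HCM values lay inside the healthy range. The highest reading came from healthy replicate 15, the brightest array. miR-526b-5p, a 5p product, was the other member detected on all arrays, with 8.73 to 33.1 (median 17.2) in HCM and 7.63 to 43.5 (median 18.7) in healthy arrays. The HCM range lay inside the healthy range.

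miR-516a-5p was detected on 21 arrays, 11 HCM and 10 healthy, the exceptions being healthy replicates 16 and 22. Its intensity was 14.4 to 151 (median 48.7) in HCM and 4.83 to 70.0 (median 26.2) in healthy arrays. HCM replicates 5 and 7 read highest, and the groups overlapped. miR-516b-5p was detected on 20 arrays, 11 HCM and 9 healthy, with 7.21 to 21.2 (median 13.2) in HCM and 3.57 to 29.4 (median 9.05) in healthy arrays. It was missed on healthy replicates 16, 22 and 25, which were dim arrays with a brightness of 166, 104 and 101, but was detected on the dimmest array, healthy replicate 20 (90.5), and on HCM replicate 2 (152). miR-518e-5p was detected on 18 arrays, 9 in each group, with 5.04 to 15.8 (median 10.4) in HCM and 3.66 to 20.99 (median 8.28) in healthy arrays. The HCM range lay inside the healthy range.

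The remaining 2 tested members were near the limit of detection. miR-520b, which carries the miR-302 type seed, was detected on 10 arrays, 7 HCM and 3 healthy, with an intensity of 2.84 to 21.6 (median 6.72) in HCM and 1.32 to 16.4 (median 3.59) in healthy arrays. The highest readings of the groups came from HCM replicate 12 and healthy replicate 15, which were also the brightest arrays of their groups, with brightness of 503 and 699. miR-519e-5p was detected on 8 arrays, 5 HCM and 3 healthy, with 1.38 to 10.9 (median 5.64) in HCM and 1.28 to 12.8 (median 4.98) in healthy arrays. Just short of the minimum for testing was miR-520e, with the same seed as miR-520b, which was detected on 4 arrays, 3 HCM and 1 healthy. Its intensity was 1.19 to 12.3 (median 4.68) in HCM and 1.06 to 8.01 (median 2.90) in healthy arrays, again highest on HCM replicate 12 and healthy replicate 15.

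The 6 other members with any detection were miR-518a-5p and miR-520d-3p, on 3 arrays each, and miR-512-3p, miR-518c-5p, miR-525-5p and miR-1323, on 1 array each. Over the 7 members detected on 1 to 5 arrays, miR-520e included, the median intensity lay between 1.21 and 3.103 and the highest single reading was 12.3.

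The 31 undetected members included miR-515-3p, miR-515-5p, miR-517a-3p, miR-517c-3p, miR-518b, miR-519d, miR-520g and miR-520h. Their median intensity over 23 arrays ran from -0.658 for miR-1283 to 2.84 for miR-518b, and 14 of the 31 had a median below 0 after the scanner's background subtraction. By its chosen probe no undetected member exceeded an intensity of 4.96 on any array, while the other probe of miR-520f, also undetected, reached 5.49. miR-518b read above 0 on every array, from 2.001 to 4.96, yet was not detected on any. miR-519d read 0.172 to 3.20 with a median of 1.42.

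Negative control spots gave a second measure of background that does not use the scanner's call. Each array held 1000 such spots of 7 control probes, and their 95th percentile ran from 1.15 to 3.69 over arrays with a median of 2.43. The chosen probe read above that percentile on all 23 arrays for 5 members, miR-498, miR-516a-5p, miR-516b-5p, miR-518e-5p and miR-526b-5p. It did so on at least 12 arrays for 11 members, of which miR-518b (14 arrays) was detected on 0 arrays and miR-1323 and miR-518c-5p (13 arrays each) on 1. For 22 members it did so on 0 arrays. The percentile is one of single spots, while a probe's value is a mean over its spots. Set against the highest mean of the 7 control probes on the same array instead, 6 members lay above it on all 23 arrays and 6 on 0, with a median of 16 members per array. These counts were made for the members only, so they do not show whether the members differ from other names. An array had between 5 and 18 members above the percentile, with a median of 11 of 45 over all arrays, 13 in HCM and 9 in healthy arrays. The median share per array was 31.9% for the other human names, with 32.7% in HCM and 31.6% in healthy arrays. For the viral names it was 35.3%, with 35.97% in HCM and 33.1% in healthy arrays. The mean number of members was 11.55 in HCM and 10.58 in healthy arrays. Within slide 1 the median number in HCM and healthy arrays was 7 and 6. It was 12 and 10 on slide 2, and 14.5 and 16 on slide 3. The percentile itself differed by slide. In HCM and healthy arrays it had a median of 3.65 and 3.26 on slide 1, 2.61 and 2.35 on slide 2, and 1.41 and 1.599 on slide 3.

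Few members were detected on any 1 array, and the brightest array had the most. HCM arrays detected 4 to 9 members with a median of 6, and healthy arrays 2 to 12 with a median of 5.5. The groups overlapped, and the healthy group held both the lowest and the highest array. Healthy replicate 15, the brightest array at 699, detected 12 members, and healthy replicate 22, at 104, detected 2. Healthy replicate 20 had the lowest brightness, 90.5, and detected 5. Within slides the medians in HCM and healthy arrays were 5 and 4 on slide 1, 6.5 and 5.5 on slide 2, and 8 and 7 on slide 3. An array detected between 4.44% and 26.7% of the members, 16.2% to 30.5% of the other human names and 14.4% to 32.4% of the viral names. Every array detected a smaller share of the members than of the other human names.

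**Figure D2:**
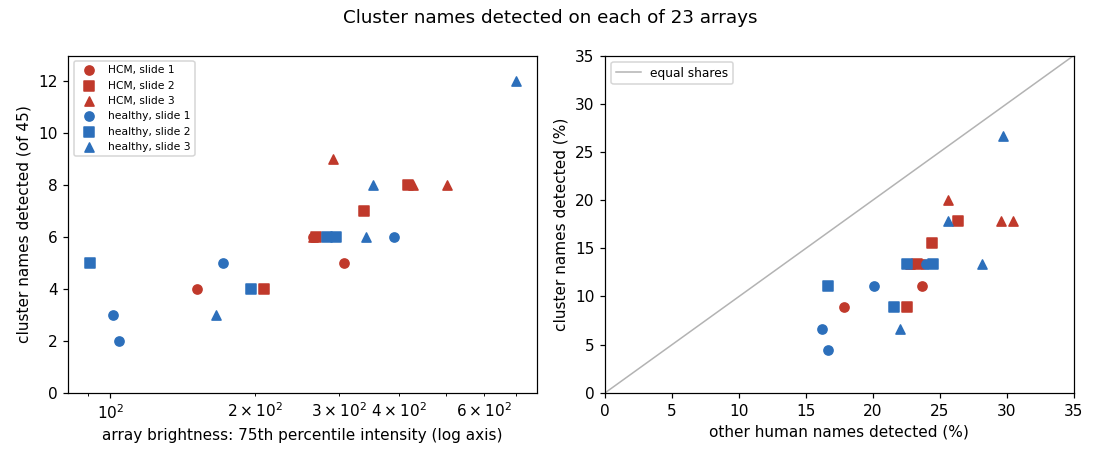
Left, the number of the 45 members detected on each array against its brightness (75th percentile intensity, log axis), with colour for the group and symbol for the slide. Right, the percentage of members against the percentage of other human names detected on the same array, with a line for equal shares. All 23 arrays lie below the line of equal shares, and counts run from 2 to 12.

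For single members the relation with brightness was tested over the 23 arrays, on log2 of the unscaled intensity floored at 1. All tested members but miR-498 passed an adjusted p of 0.05 (Benjamini-Hochberg over 543 names, two-sided permutation test). Pearson's r was 0.908 for miR-520b, 0.854 for miR-519e-5p and 0.841 for miR-516b-5p, each with a permutation p of 1e-05, the smallest that 100000 resamples can give, and an adjusted p of 2.15e-05 over 543 names. Spearman's rho was 0.860, 0.851 and 0.873 for these names (permutation p 1e-05 each, adjusted p 2.95e-05). For miR-526b-5p r was 0.802 (permutation p 1e-05, adjusted p 2.15e-05) and rho 0.770 (permutation p 3e-05, adjusted p 7.05e-05). For miR-518e-5p r was 0.724 (permutation p 0.00011, adjusted p 0.000178) and rho 0.683 (permutation p 0.00052, adjusted p 0.000818).

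The 2 remaining members had lower coefficients. miR-516a-5p had an r of 0.546 (permutation p 0.00693, adjusted p 0.00825) and a rho of 0.522 (permutation p 0.0116, adjusted p 0.0137). For miR-498 r was 0.382 (permutation p 0.0711, adjusted p 0.0748) and rho 0.330 (permutation p 0.124, adjusted p 0.130). Of all 543 tested names, 93.9% passed, with a median r of 0.789, so passing is the usual outcome here. Whether the correlation of miR-498 differed from that of other names was not tested. Without healthy replicates 20 and 25, which lay farthest from the median of log2 brightness, r was 0.871 for miR-520b, 0.848 for miR-519e-5p, 0.846 for miR-516b-5p, 0.722 for miR-526b-5p, 0.673 for miR-518e-5p, 0.470 for miR-516a-5p and 0.313 for miR-498. Within slides 1, 2 and 3 it was 0.919, 0.907 and 0.825 for miR-520b, 0.816, 0.773 and 0.435 for miR-516a-5p, and 0.479, 0.254 and 0.492 for miR-498. The remaining 4 names had an r of 0.589 to 0.966 within slides. Both probes of miR-498 and 1 of miR-526b-5p belonged to the 508 probes that define brightness.

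HCM against healthy was compared after each array was scaled to its brightness. Values under 5.45, which is the 5th percentile among detected probes after scaling, were raised to it before log2 was taken, so the lowest possible log2 value is 2.45. With limma on all 543 names tested, 0 of the 7 members passed an adjusted p of 0.05, beside 0 of 543 names (0%). At an unadjusted p under 0.05 there were 0 members, beside 36 of 543 names (6.63%). Of the 7 members 2 had a positive and 5 a negative difference, with a median of -0.10. Over all tested names 33.9% had a positive and 66.1% a negative difference, and the median was also -0.10. At an unadjusted p under 0.05, 3.68% of all names were higher and 2.95% lower in HCM. As cats are not known to carry the cluster, the differences of the members are not read as levels of its miRNAs. For names whose miRNA is present in cat serum, the number of releasing cells and the release per cell cannot be told apart.

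**Figure D3:**
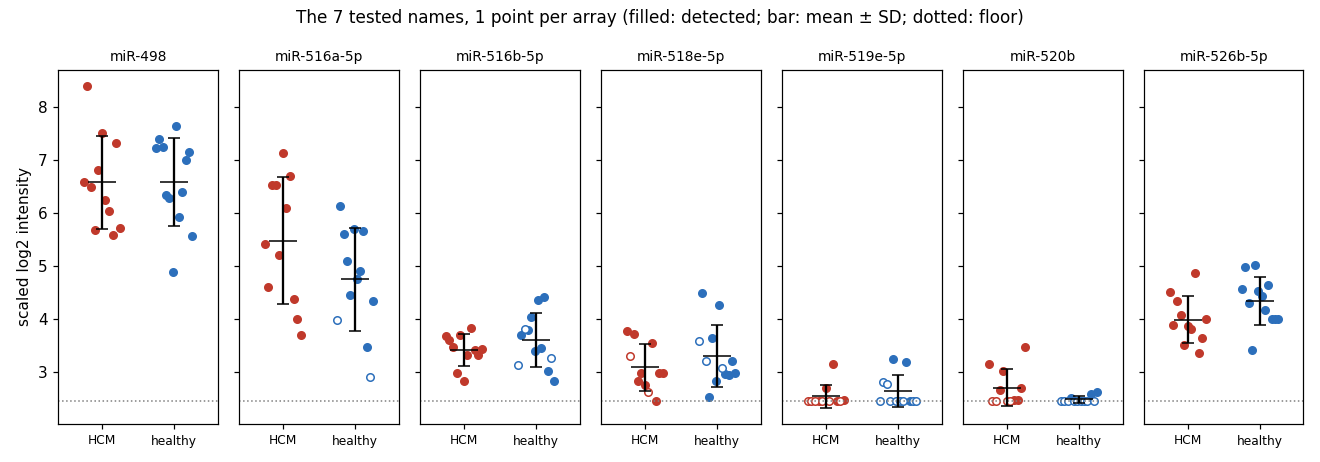
Scaled log2 intensity of the 7 tested members in 11 HCM and 12 healthy arrays, 1 point per array. Filled points were detected and open points were not, bars give the mean ± SD, and the dotted line is the floor at 2.45. The groups overlap in every panel, and most points of miR-519e-5p and miR-520b lie at or near the floor.

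The largest difference among the members was that of miR-516a-5p, whose scaled log2 value was 5.48 ± 1.20 (SD, n = 11) for HCM and 4.75 ± 0.98 (SD, n = 12) for healthy cats. The difference was 0.73 with a 95% interval of -0.14 to 1.6 (limma p 0.0961, adjusted p 0.802). Of the 11 HCM arrays 7 exceeded the median of the healthy cats. The difference was 0.32, 1.28 and 0.60 on slides 1, 2 and 3. HCM replicates 3, 5, 7 and 9 held the highest values, all above 6.5, and healthy replicate 16 the lowest at 2.90. After normexp background correction, which added an offset of 50 to the intensities before scaling, the difference was 0.14.

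For miR-520b the scaled log2 value was 2.70 ± 0.35 (SD, n = 11) with HCM and 2.48 ± 0.06 (SD, n = 12) without it. They differed by 0.22 with an interval of -0.04 to 0.48 (limma p 0.0901, adjusted p 0.802). As 4 HCM and 9 healthy arrays lay at the floor, the size of this difference depends on where the floor is set. With a floor at an intensity of 1 it was 0.44 (adjusted p 0.532), and on the scanner's total gene signal 1.0 (unadjusted p 0.00224, adjusted p 0.174). After normexp it was -0.27, beside -0.32 for miR-516b-5p and miR-526b-5p and -0.33 for miR-518e-5p and miR-519e-5p. It was -0.08 for miR-498 and 0.14 for miR-516a-5p. The normexp offset of 50 is larger than any unscaled intensity of miR-520b, and its part in the change of sign was not tested. Within slides it was 0.22, 0.20 and 0.25. Detection on 7 of 11 HCM against 3 of 12 healthy arrays gave a two-sided Fisher's exact p of 0.0995 (adjusted p 0.961 over 454 names). By this test 0 of the 12 members that were detected on some but not all arrays passed, beside 0 of 454 names (0%) past the adjusted threshold. At an unadjusted p under 0.05 there were 0 members and 18 of 454 names (3.96%). Detection was called before scaling, and the mean brightness of HCM arrays was higher (log2 8.22 against 7.80). Its part in the detection of miR-520b was not tested.

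miR-526b-5p had a scaled log2 value of 3.98 ± 0.44 (SD, n = 11) for HCM cats and 4.34 ± 0.46 (SD, n = 12) for healthy cats. The difference was -0.35 with an interval of -0.74 to 0.04 (limma p 0.0757, adjusted p 0.802), and 9 of the 11 HCM arrays were under the median of the healthy cats. Within slides it was -0.07, -0.73 and -0.19. Without scaling between arrays the sign changed, to 0.07.

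Scaled log2 values of miR-518e-5p were 3.08 ± 0.44 (SD, n = 11) for HCM and 3.31 ± 0.59 (SD, n = 12) for healthy cats, -0.22 apart with an interval of -0.67 to 0.22 (limma adjusted p 0.802). It was 0.15, -0.65 and -0.04 on slides 1, 2 and 3, and 0.08 without scaling. miR-516b-5p read 3.41 ± 0.30 for HCM and 3.60 ± 0.51 for healthy cats (SD, the same n), a difference of -0.19 with an interval of -0.56 to 0.19 (limma adjusted p 0.802). miR-519e-5p read 2.53 ± 0.21 and 2.63 ± 0.30, a difference of -0.10 with an interval of -0.36 to 0.17 (limma adjusted p 0.838), with 8 arrays of each group at the floor. miR-498 read 6.58 ± 0.88 and 6.59 ± 0.84, a difference of -0.01 with an interval of -0.70 to 0.69 (limma adjusted p 0.994). miR-520e, below the minimum for testing, lay at the floor on all but 1 HCM array.

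**Figure D4:**
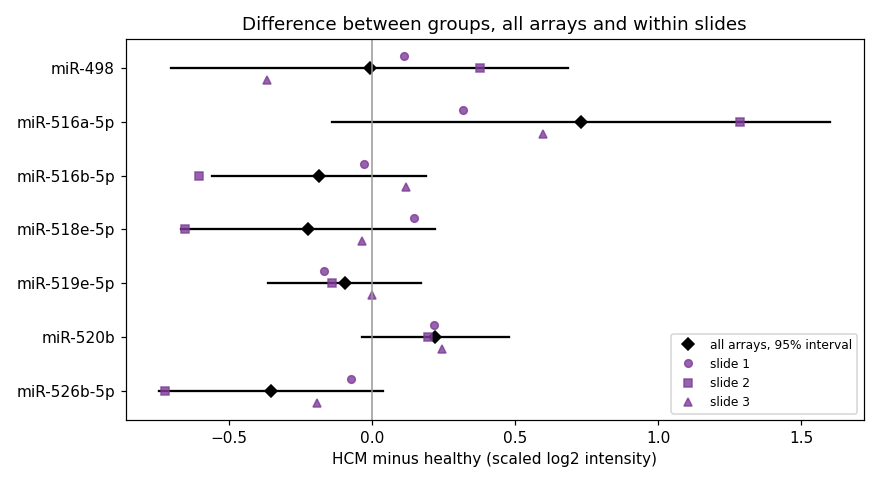
HCM minus healthy on the scaled log2 scale for the 7 tested members. Diamonds and lines give the limma estimate over all 23 arrays with its 95% interval, and purple symbols give the difference of means within slides 1, 2 and 3. Every interval includes 0, and miR-516a-5p (0.32 to 1.28) and miR-520b (0.20 to 0.25) have a positive difference on each slide.

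Probes for the same member often did not give the same call. The array holds between 2 and 4 probes per member. Of the 99 probes 75 were detected on 0 arrays, 10 on at least 6 and 3 on all 23. Of all 4944 probes on the array, 1075 were detected on at least 6 arrays and 508 on all 23. The chosen probe is the brightest of its name, which favours a higher count for it. How often probes of the other names differ in their calls was not counted. The chosen probe of miR-516b-5p was detected on 20 arrays and its other probe on 0. For miR-518e-5p the 3 probes were detected on 18, 1 and 0 arrays, for miR-519e-5p the 2 probes on 8 and 0, and for miR-526b-5p on 23 and 4. Both probes of miR-498 were detected on 23 arrays, and those of miR-520b on 10 and 9. miR-516a-5p had probes detected on 21 and 13 arrays.

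**Figure D5:**
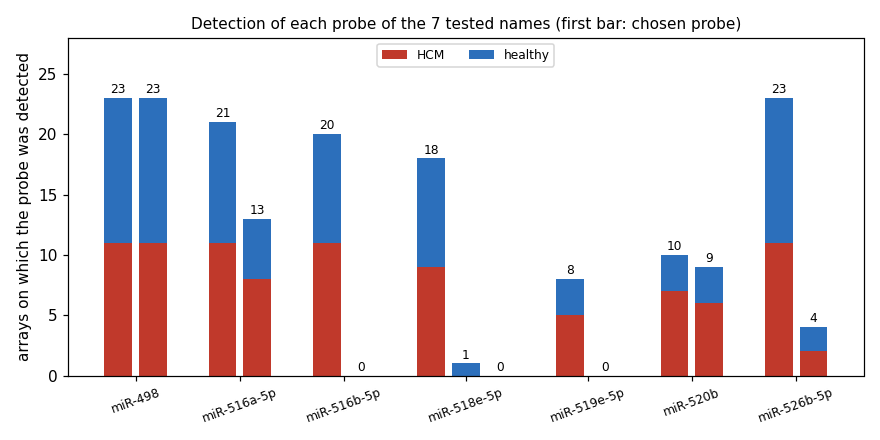
Number of arrays, HCM and healthy stacked, on which each probe of the 7 tested members was detected, with the chosen probe first. miR-498 and miR-520b have near equal bars, while miR-516b-5p, miR-518e-5p, miR-519e-5p and miR-526b-5p have 1 high bar and others at 0 to 4.

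Where a second probe was also detected on at least 6 arrays, its difference between groups could be set beside that of the chosen probe, in a limma fit of 1075 probes that was added after seeing the data. For miR-498 the chosen and the other probe differed by -0.01 and 0.003 between groups, and for miR-520b by 0.22 and 0.20. For miR-516a-5p the chosen probe gave 0.73 (adjusted p 0.816) and the other -0.003 (SE 0.19, adjusted p 0.998), the latter at the floor on 7 arrays. Over the 23 arrays the scaled values of both probes correlated with r = 0.914 for miR-498, 0.966 for miR-520b and 0.603 for miR-516a-5p, given as a description.

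The tested members did not form 1 common pattern over the arrays. Over the 21 pairs of the 7 members, Pearson's r of the scaled log2 values over 23 arrays ran from -0.257 to 0.723 with a median of 0.0949, beside a median of 0.0148 over all pairs of tested names. The highest were those of miR-518e-5p with miR-526b-5p (0.723) and miR-519e-5p with miR-526b-5p (0.643), and the lowest that of miR-519e-5p with miR-520b (-0.257). Among miR-516b-5p, miR-518e-5p, miR-519e-5p and miR-526b-5p every pair was positive, from 0.252 to 0.723. Every pair with miR-520b was negative, from -0.257 to -0.0694. These groupings were picked after seeing the values and were not tested. The arrays share their scaling, and values at the floor are equal by construction.

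Outside the cluster, some names followed a member closely. By r over the 23 arrays, the 3 names most like miR-498 were miR-4447 (0.977), miR-4707-5p (0.975) and miR-3937 (0.951). For miR-516a-5p they were miR-4462 (0.803), miR-4751 (0.703) and miR-5700 (0.653), for miR-516b-5p miR-4778-5p (0.891), miR-4436b-3p (0.847) and miR-765 (0.786), and for miR-518e-5p miR-5196-5p (0.895), miR-184 (0.866) and miR-584-5p (0.852). miR-526b-5p was closest to miR-3131 (0.881), miR-184 (0.795) and miR-30c-1-3p (0.786). The names nearest to miR-519e-5p were miR-4660 (0.851), miR-4306 (0.832) and miR-514b-5p (0.783), and those nearest to miR-520b were miR-4417 (0.714), miR-376c-3p (0.673) and miR-4451 (0.658). For 6 of the 7 members, all but miR-498, the closest name correlated with r below 0.9. The names were picked for their high r, which is therefore no test of likeness. miR-519e-5p and miR-520b lay at the floor on 16 and 13 arrays. The 3 names nearest to miR-519e-5p were detected on 8, 23 and 23 arrays, and those nearest to miR-520b on 19, 6 and 9.

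In the neighbouring miR-371 to miR-373 cluster, 7 names were on the array. The 5p products miR-371a-5p, miR-371b-5p and miR-373-5p were detected on 23 arrays each. miR-371a-3p, miR-371b-3p, miR-372 and miR-373-3p were detected on 0. The unscaled intensity of miR-371a-5p ran from 83.9 to 1001 with a median of 223. Its difference between groups was 0.61 (limma p 0.0177, adjusted p 0.613), and those of miR-371b-5p and miR-373-5p were -0.07 and 0.05 (adjusted p 0.941 and 0.985). Of 10 names outside the cluster with the miR-302 or miR-17 seed, miR-106b-5p was detected on 23 arrays, miR-17-5p on 3, miR-20a-5p and miR-93-5p on 2 each, and the other 6, with all 5 miR-302 names, on 0. The difference of miR-106b-5p was -0.30 (limma adjusted p 0.860).

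The authors' deposited log2 table holds 965 of the 2026 names (47.6%) and 19 of the 45 members (42.2%), with all 7 tested members among them. In the same limma test on these values the differences were 0.83 for miR-516a-5p, 0.31 for miR-520b and 0.31 for miR-516b-5p, and 0 of 7 members passed, with adjusted p of 0.640 or more. The sign of miR-516b-5p was opposite to that from the scanner files. On HCM replicate 5, 1 of the 15 spots of its probe was marked as an outlier by the scanner software, with an intensity of 4344 against 8.89 to 17.2 for the other 14. The mean over the spots was 12.8 without it and 302 with it, or 3.68 and 8.24 on the log2 scale, and the authors' deposited table holds 7.78. With outlier spots kept in the scanner values, the difference of miR-516b-5p was 0.18 in place of -0.19.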

How the data were processed

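Serum miRNA was measured on 23 arrays, from total RNA labelled with Cy3, per the labels' protocols. Per the file headers, the deposited scanner files hold spot intensity on a linear scale from Agilent Feature Extraction 10.7.3.1, background already subtracted, with no normalization between arrays. Per the file headers they also hold other information, as flags of 0 or 1 per spot and a control type. The authors' deposited table holds log2 values. Set against the scanner values above an intensity of 8 they gave slopes of 0.950 to 0.980 and r of 0.987 to 0.9998 per array, so base and direction were settled, while their normalization stays unknown. Column medians ran from 2.98 to 3.31.

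Control spots and outlier spots (1.81% to 3.95% of miRNA spots) were left out, and a probe's value was the mean of its other spots. Detection took 50% or more of these spots flagged well above background. Arrays were scaled to the 75th percentile over 508 probes detected on all arrays, floored at 5.45 and log2 transformed. Each name was represented by its brightest probe, blind to group, and tested when detected on at least 6 arrays (543 names). No spot was saturated (0). limma 3.58.1 in R 4.3.3 (lmFit and eBayes, two-sided, no covariates, Benjamini-Hochberg over all tested names, threshold 0.05) compared the groups. Fisher's exact test in scipy 1.17.1 compared detection. Permutation tests with 100000 resamples, drawn with numpy 2.4.6, were used for the correlations, both under Python 3.11.15. The tests were checked on simulated data. For limma these were normal values drawn independently for each name and without a floor. That check therefore does not cover names with many arrays at the floor, or names that vary together. The number of arrays limits the precision.

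The members and lists were chosen with earlier results of these data known. Members named with full values were those tested, and 1 more up to 8 by arrays detected. miR-106a-5p, also on the fixed seed list, was not matched by that name. For normexp, run with an offset of 50, the median spot signal was used in place of the mean signal, which was not used here. Each sample is labelled as the serum of a separate cat.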

Additional observations from a re-analysis of the deposited data

How the results depend on the processing

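No paired analysis was possible because the HCM and healthy cats share no replicate numbers. No member was called under any alternative run (0 in each of 14 alternatives, 23 fits without 1 array, 3 single slides and the added fit of every probe), and the lowest adjusted p was 0.174, for miR-520b on the scanner's total gene signal. Over all names, where 0 were called, 2 were called with a lower floor, 4 on the total gene signal, 4 on the deposited log2 table and 2 within slide 2. Leaving out each array in turn called 0 in all 23 fits. miR-498 changed sign with its value near 0, to 0.067 with the 75th percentile over all probes, 0.043 with quantile normalization, 0.41 without scaling, 0.0097 on the total gene signal, 0.15 on the deposited table, 0.036 with slide as a block, 0.27 with array brightness as a covariate, and 0.11 and 0.38 within slides 1 and 2. Without 1 array it ran from -0.19 to 0.092. miR-516b-5p changed to 0.089 without scaling, 0.31 on the deposited table, 0.18 with outlier spots kept and 0.12 within slide 3. miR-518e-5p changed to 0.085 without scaling and 0.15 within slide 1, and miR-526b-5p to 0.067 without scaling. miR-520b changed to -0.27 after normexp, whose offset of 50 is larger than its unscaled readings. miR-516a-5p gave 0.14 to 1.08 over the 14 alternatives and 0.56 to 0.91 without 1 array, while its less bright probe alone gave -0.003 in the added fit. The causes were not tested. The fit with outlier spots kept restored all outlier spots on all arrays, so the part of the single spot of miR-516b-5p was not tested alone. miR-519e-5p and miR-520b had no value with the higher floor, and miR-519e-5p none as a mean over probes, because all arrays lay at the floor. The median number of members detected per array was 5 to 8 over the detection calls tried, against 6. The 6 members whose correlation with brightness passed also passed with brightness over all probes. Processed and background-subtracted signals were equal on all 23 arrays, so that alternative changed nothing.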

Other observations

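The deposited log2 values of the members showed the effect of single spots at 1 more place. On HCM replicate 3, 1 of the 10 spots of a probe for miR-520e was marked as an outlier with an intensity of 19270, against 1.06 to 5.26 for the other 9. The log2 mean was 1.58 without that spot and 10.91 with it, and the authors' deposited table holds 10.9. Values were counted where the mean with outlier spots exceeded an intensity of 8, and means without them under 8 were set to 8. These were the 2 of 167 such member values in which outlier spots then moved the mean by over 1 on the log2 scale. Moves that began below 8 were therefore counted only in part. Over all miRNA probes of that table there were 54 such values of 19614, and in 47 of them (87.0%) the deposited value lay nearer to the mean with the outlier spots than to the mean without them. The comparison was chosen after seeing the data. How the authors treated outlier spots is not given in the sources used here.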
